A study of Mus musculus with 50 samples.

Results

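The loci described here are 8 mouse genes, Fut11, Comtd1, Zmynd8, Lix1l, Ankrd34a, Coro1c, Sh3bgrl3 and Ermap. Each held a loss of DNA methylation in soleus muscle lacking Dnmt3a that ranked high by p, though not always by size. They were selected on that loss, so the difference between knockout and wild-type (WT) samples is described at these loci, and no test of it is used as evidence. A CpG was counted as belonging to a gene where the deposited table assigned it to that gene's promoter or body. This gave 112 CpGs of 205304, in 21 clusters of 51038, for 8 of 13722 genes. A cluster is a group of neighbouring CpGs as the authors defined it, and 1 lead cluster was followed for each gene: the one named when the locus was chosen, or otherwise the one with the lowest p for genotype. Lix1l and Ankrd34a share their lead cluster, which leaves 7 lead clusters. By that p the leads ranked from 1 (Fut11) to 62 (Sh3bgrl3) of the 51038 clusters. By the size of the fall in level they ranked from 43 (Coro1c) to 11986 (Comtd1).

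The assay was reduced representation bisulfite sequencing (RRBS): DNA is cut with MspI at CCGG and unmethylated cytosines are converted, so that each read calls a CpG methylated or unmethylated. All mice were on a C57BL/6 background, 12 weeks old, male and female, and carried both copies of Dnmt3a flanked by loxP sites around exon 19 (Dnmt3a flox/flox), the WT controls included. The knockout mice (mD3AKO) also carried Cre recombinase under the muscle creatine kinase promoter (mCK-Cre), which acts late in muscle differentiation, so that satellite cells and cells that are not muscle presumably keep Dnmt3a. Mice ran on a treadmill for 30 min and were killed 10, 30 or 60 min later, or spent the same time on a sham treadmill (rest), and each sample is a single soleus muscle. In order of time, rest first, the WT groups held 5, 5, 5 and 6 samples and the mD3AKO groups 5, 5, 7 and 6, which makes 21 WT and 23 mD3AKO. Each sample had between 12819404 and 41285655 calls, and every CpG had at least 8 calls in every sample. Because whole muscle was measured, a lower level can mean fewer methylated cells or fewer methylated copies per cell, and these cannot be told apart. The 21 measured CpGs of Dnmt3a lay outside exon 19 and so did not check the deletion. Mice at rest and at 60 min carry the sample numbers 1 to 25 and those at 10 and 30 min the numbers 26 to 50. A difference of 10 or 30 min from rest or 60 min therefore cannot be told apart from one of sample number. The comparison of 60 min with rest lies within 1 set of numbers.

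DNMT3A is a de novo DNA methyltransferase: it adds methyl groups to CpGs that carry none, whereas DNMT1 copies existing methylation after DNA replication. Adult muscle fibres no longer divide, so methylation gained late in their differentiation depends on enzymes of the de novo kind. CpG-rich promoters are mostly unmethylated in any tissue, whereas CpGs in gene bodies and between genes are mostly methylated.

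The reference sequences of the 7 lead clusters (RefSeq, GRCm38, the same assembly as mm10, plus strand) are shown to let the CpG density of each be seen beside its methylation level. Each run begins 10 bases before the first measured CpG shown and ends 10 bases after the last, and capitals mark the CpGs whose methylation was measured. For Fut11 (chr14:20695572-20695667), Comtd1 (chr14:21847627-21847899) and Lix1l with Ankrd34a (chr3:96598352-96598630) only the stretch with the most measured CpGs is shown, with 13 of 22, 13 of 27 and 13 of 18 of them. The other 4 clusters are shown whole, at chr2:165885749-165885839 (Zmynd8), chr5:113897874-113897895 (Coro1c), chr4:134128919-134129128 (Sh3bgrl3) and chr4:119189526-119189570 (Ermap).
Fut11: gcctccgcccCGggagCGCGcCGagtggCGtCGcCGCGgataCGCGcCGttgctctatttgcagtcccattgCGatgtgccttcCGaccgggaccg
Comtd1: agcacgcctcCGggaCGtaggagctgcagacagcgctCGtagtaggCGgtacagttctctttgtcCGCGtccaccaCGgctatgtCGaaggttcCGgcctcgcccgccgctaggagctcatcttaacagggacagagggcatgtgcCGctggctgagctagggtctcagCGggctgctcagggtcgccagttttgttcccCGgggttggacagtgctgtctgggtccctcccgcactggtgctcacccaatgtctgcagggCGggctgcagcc
Zmynd8: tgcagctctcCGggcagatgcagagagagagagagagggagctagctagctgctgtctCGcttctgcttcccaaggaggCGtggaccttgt
Lix1l and Ankrd34a: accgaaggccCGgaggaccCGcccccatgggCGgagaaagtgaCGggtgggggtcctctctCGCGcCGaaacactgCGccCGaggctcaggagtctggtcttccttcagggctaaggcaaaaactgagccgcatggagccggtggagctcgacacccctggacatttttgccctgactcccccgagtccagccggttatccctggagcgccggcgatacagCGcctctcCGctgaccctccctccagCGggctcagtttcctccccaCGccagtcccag
Coro1c: ccactctgcaCGtagtgtctga
Sh3bgrl3: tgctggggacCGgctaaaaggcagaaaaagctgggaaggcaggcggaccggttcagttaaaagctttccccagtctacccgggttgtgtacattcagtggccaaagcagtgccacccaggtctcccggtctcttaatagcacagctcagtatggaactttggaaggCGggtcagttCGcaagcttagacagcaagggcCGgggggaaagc
Ermap: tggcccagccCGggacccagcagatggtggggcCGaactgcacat

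The sequences differed widely in CpG content. In a window of 300 bases centred on the cluster, Fut11 held 39 CpGs with an observed to expected ratio of 1.10. This window missed most of the measured CpGs of Fut11. Of the 7 windows it alone met the usual composition of a CpG island (a GC fraction of at least 0.5 and a ratio of at least 0.6). Of all 51038 cluster windows, 21.1% met it. The Lix1l and Ankrd34a window, with 19 CpGs, a GC content of 65.3% and a ratio of 0.597, fell just short of it. The Sh3bgrl3 window held 10 CpGs, with a ratio of 0.369. The remaining 4 windows held 6 or 7 CpGs, with ratios of 0.254 in Comtd1, 0.272 in Zmynd8, 0.44 in Coro1c and 0.455 in Ermap. The Comtd1 window fell between measured CpGs and held none of them. Its ratio, and the letters found in it below, therefore describe unmeasured sequence. The Comtd1 stretch shown above held 20 CpGs in 273 bases, with a GC content of 64.5%. The letters CAGCTG, an E-box that reads the same on both strands, were in 3 of the 7 windows (Comtd1, Zmynd8 and Coro1c) and in 17.2% of all windows. GGGCGG, a GC box, was found on either strand in 1 of 7 (Sh3bgrl3) and in 20.1% of all windows. The MspI site CCGG was in all 7 and in 99.4% of all windows, as the assay requires.

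The lead clusters fell into 3 kinds by their level in WT muscle. Fut11, Comtd1, Lix1l with Ankrd34a and Sh3bgrl3 were lightly methylated, with mean WT levels from 4.42% to 13.9% and mean mD3AKO levels from 0.390% to 2.76%. Zmynd8 and Coro1c were partly methylated in WT, at 23.0% and 39.5%, and stood at 2.12% and 12.7% in mD3AKO. Ermap was mostly methylated in both, at 80.3% and 61.0%. As a share of the WT level, mD3AKO kept 0.0462 in Fut11, 0.0925 in Zmynd8, 0.172 in Sh3bgrl3, 0.217 in Comtd1, 0.261 in Lix1l with Ankrd34a, 0.322 in Coro1c and 0.759 in Ermap. Across all 6195 clusters with a mean WT level between 4% and 25%, the median of this share was 0.861, with quartiles of 0.663 and 1.03. A level here is the percentage of a cluster's calls that were methylated in a sample, and means were taken over 21 WT or 23 mD3AKO samples.

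Of the 7 lead clusters, 1 (Fut11) had every mD3AKO sample below every WT sample, where 0.00784% of all 51038 clusters did. All 7 had a lower mean in mD3AKO at each of the 4 times, against 14.3% of all clusters. By edgeR's quasi-likelihood test with Benjamini-Hochberg adjustment over all clusters, 8 of the 21 member clusters were called lower in mD3AKO (the 7 leads and a further cluster of Coro1c), against 1.09% of all clusters. Since the loci were selected on this contrast, nothing is read from those counts. Over the 7 leads the differences ran from -36.4 to -4.16 points in sample numbers 1 to 25 and from -26.0 to -2.75 in 26 to 50, a direction that the choice of loci on these same samples largely fixes. Averages were lower in mD3AKO at 15 of the 21 clusters and at 62.4% of all clusters, and the median difference, mD3AKO minus WT, was -4.8 percentage points over the 21 and -0.455 over all. Over the 14 member clusters that were not leads, 8 were lower and the median difference was -1.09 points.

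**Figure D1:**
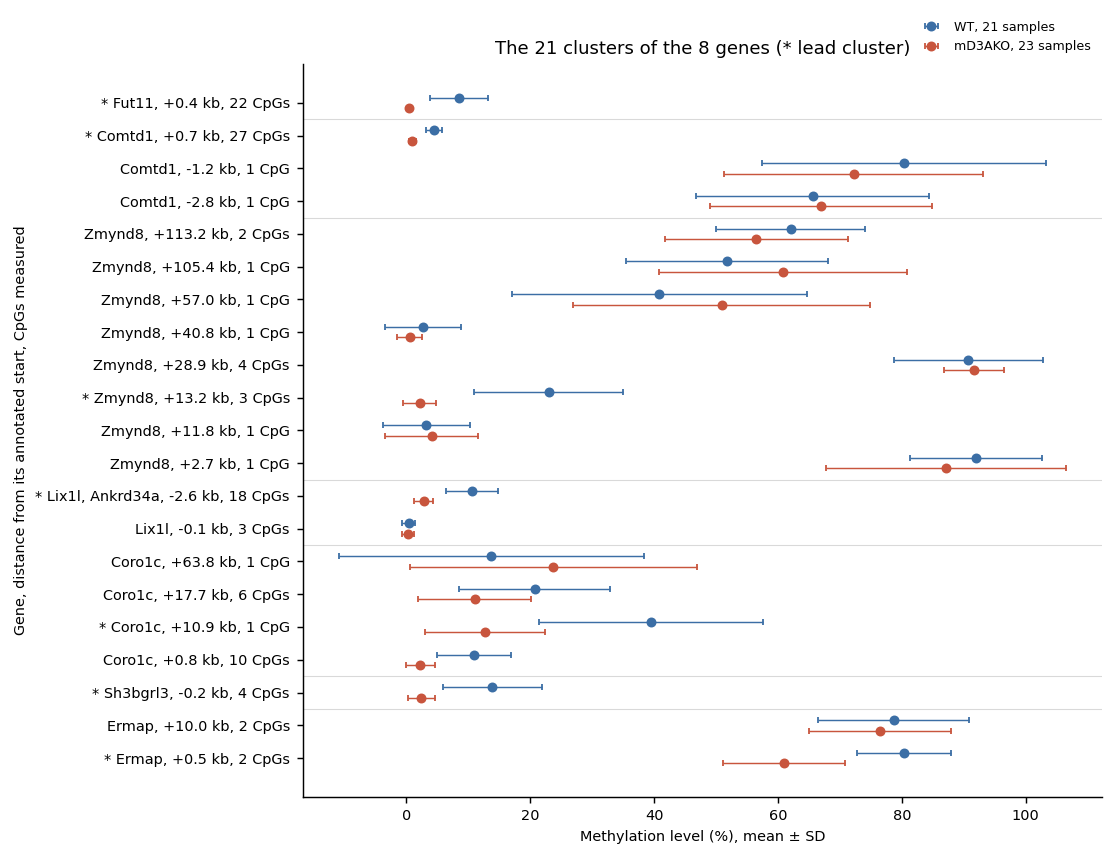
Methylation level (%) of the 21 clusters of the 8 genes, 1 row per cluster, labelled with the distance from the gene's annotated start and the number of CpGs measured; points are means and bars SDs over 21 WT (blue) and 23 mD3AKO (red) samples, and an asterisk marks a lead cluster. The lead clusters of Fut11, Comtd1, Zmynd8, Lix1l with Ankrd34a, Coro1c, Sh3bgrl3 and Ermap stand lower in mD3AKO, with overlapping SDs in Coro1c. All other clusters of Zmynd8 and Comtd1 have overlapping SDs.

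Fut11, which encodes a fucosyltransferase that adds the sugar fucose to glycans, had a single measured cluster of 22 CpGs (chr14:20695012-20695656). It lay 44 to 688 bp downstream of the annotated start, in coding sequence near the 5′ end of the gene (chr14:20694968-20701016, plus strand). WT levels ran from 2.27% through a median of 7.40% to 20.2%, and mD3AKO levels from 0% through 0.264% to 1.14%. The groups did not overlap. At rest the 5 WT samples stood at 2.27%, 4.03%, 5.19%, 5.25% and 20.2%, and the 5 mD3AKO samples at 0.120%, 0.196%, 0.558%, 0.605% and 0.730%. The mD3AKO sample at 0% had 0 methylated of 892 calls, which allows a level of up to 0.336%, an allowance for counting error alone.

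Every one of the 22 Fut11 CpGs was lower in mD3AKO on average, but the WT level differed strongly between neighbours. The CpG 67 bp from the start was methylated at 18.9% ± 12.6 in the 21 WT and 0.0981% ± 0.470 in the 23 mD3AKO samples (mean ± SD, as for all such values here), with 22 of 23 mD3AKO samples at 0. The CpG 15 bp before it, 52 bp from the start, had only 1.64% ± 3.16 in WT and 0.230% ± 0.919 in mD3AKO. WT means over the 22 CpGs ran from 0.684% to 18.9%, and mD3AKO means from 0% to 2.13%. Grouped into segments of CpGs no more than 100 bp apart, the 5 CpGs at 44 to 93 bp had 9.66% ± 6.52 in WT and 0.283% ± 0.590 in mD3AKO. The 4 at 208 to 282 bp had 11.8% ± 12.8 and 0.527% ± 1.27, and the 13 at 614 to 688 bp, whose sequence is shown above, had 6.73% ± 4.89 and 0.415% ± 0.392. Neighbouring CpGs can be read on the same molecules, so they are not independent measurements.

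Comtd1, a relative of catechol-O-methyltransferase, had 29 CpGs in 3 clusters. The lead cluster (27 CpGs, chr14:21847637-21849016) spanned the annotated start of this minus-strand gene (chr14:21845855-21848977), from 39 bp upstream to 1340 bp downstream. WT levels ran from 1.52% through 4.36% to 7.44% and mD3AKO levels from 0% through 0.988% to 2.13%. Of 23 mD3AKO samples, 21 lay below the lowest WT sample.

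Within the Comtd1 cluster, WT methylation and the difference were both in the part away from the start. The 13 CpGs at 1089 to 1340 bp, in exons and an intron, stood at 5.64% ± 2.27 in WT and 1.21% ± 0.805 in mD3AKO. The 6 CpGs at 913 to 959 bp stood at 6.83% ± 6.06 and 1.24% ± 1.83. By contrast the 5 CpGs from 39 bp upstream to 13 bp downstream stood at 0.240% ± 0.617 in WT and 0.278% ± 0.598 in mD3AKO, a level too low in both for a loss to be seen. Between them, the 2 CpGs nearest 479 bp stood at 1.19% ± 2.07 and 0.587% ± 1.87. The single CpG with the largest difference, 937 bp from the start, had 15.8% ± 13.1 in WT and 3.56% ± 7.87 in mD3AKO. The other 2 Comtd1 clusters, single CpGs 1169 and 2783 bp upstream, were highly methylated in both genotypes, at 80.3% ± 23.0 against 72.2% ± 20.9 and at 65.6% ± 18.8 against 66.9% ± 17.9 (WT against mD3AKO).

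Coro1c, an actin-binding coronin, had 4 clusters with 18 CpGs on the minus strand of chromosome 5 (gene chr5:113842436-113908758), all intronic. Its lead cluster was a single CpG, chr5:113897884, 10874 bp from the annotated start, where WT levels ran from 5.08% through 38.5% to 75.0% and mD3AKO levels from 0% through 11.1% to 31.4%. All 23 mD3AKO samples lay below the WT mean, and 5 lay below the lowest WT sample, so the groups overlapped. This value rests on 27 to 241 calls per sample. The cluster nearest the start (10 CpGs, 492 to 1117 bp, chr5:113907641-113908266) stood at 10.9% ± 6.00 in WT and 2.25% ± 2.40 in mD3AKO.

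Within that cluster the CpGs differed by their distance from the start. The 7 CpGs at 985 to 1117 bp had 14.0% ± 7.89 in WT and 2.72% ± 3.13 in mD3AKO, and the 3 at 492 to 537 bp had 0.923% ± 2.76 and 0.611% ± 1.75, where WT had too little methylation for a loss to be seen. In the other clusters of Coro1c, the 6 CpGs at 17622 to 17703 bp had 20.7% ± 12.2 and 11.1% ± 9.13, and the single CpG 63755 bp away 13.7% ± 24.6 and 23.7% ± 23.2.

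**Figure D2:**
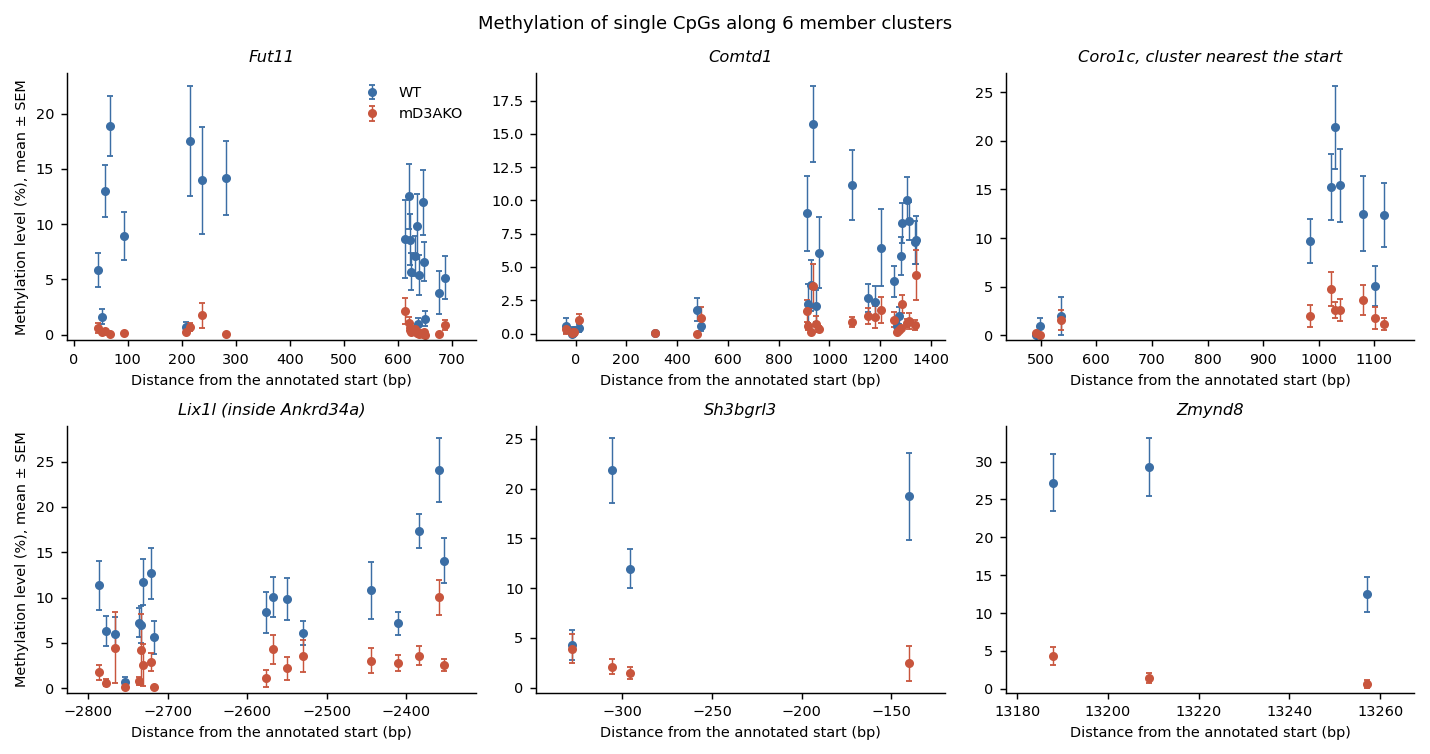
Methylation level (%) of single CpGs in 6 member clusters against distance from the gene's annotated start (bp, negative upstream); points are means and bars standard errors over 21 WT (blue) and 23 mD3AKO (red) samples. In Comtd1 and Coro1c the CpGs nearest the start are near 0 in both genotypes and the WT level is higher farther in, while in Fut11 WT methylation is present from 44 bp on and mD3AKO stays near 0.

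Zmynd8 encodes a chromatin reader with a bromodomain and a MYND zinc finger. Its 14 CpGs lay in 8 clusters, all in introns of a minus-strand gene of chromosome 2 (chr2:165784152-165899016). The lead cluster (3 CpGs, chr2:165885759-165885828) was 13188 to 13257 bp from the farthest annotated start, and its centre was 919 bp upstream of the start of another transcript of the gene. WT levels ran from 4.82% through 19.1% to 43.5%, and mD3AKO levels from 0% through 0.820% to 8.56%, with 8 of 23 mD3AKO samples at 0. The 3 CpGs stood at 27.2% ± 17.1, 29.3% ± 17.4 and 12.4% ± 10.5 in WT and at 4.33% ± 5.46, 1.38% ± 3.24 and 0.660% ± 2.38 in mD3AKO, in order of distance from the start.

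The other 7 clusters of Zmynd8 varied in level and in direction. A single CpG at chr2:165858190, lightly methylated in WT, stood at 2.64% ± 6.17 in WT and 0.497% ± 2.08 in mD3AKO, 0.188 of the WT level. The nearest other cluster, a single CpG 1418 bp away at chr2:165887246, was at 3.23% ± 6.98 in WT and 4.07% ± 7.48 in mD3AKO. The 4-CpG cluster 15597 bp away on the other side was at 90.7% ± 12.0 and 91.6% ± 4.88. Over the 7 clusters, differences of mD3AKO minus WT ran from -5.55 to 10.1 points.

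Lix1l, a relative of the limb expression gene Lix1, and Ankrd34a, an ankyrin repeat gene, lie close together on the plus strand of chromosome 3. Their shared cluster of 18 CpGs (chr3:96598362-96598797) lay in coding sequence of Ankrd34a (chr3:96596636-96599775), 1726 to 2161 bp from its start, and 2352 to 2787 bp upstream of Lix1l (chr3:96601149-96626171). WT levels ran from 5.77% through 9.71% to 20.5% and mD3AKO levels from 0.463% through 2.34% to 6.77%, and 21 of 23 mD3AKO samples lay below the lowest WT sample. All 18 CpGs were lower on average in mD3AKO. The largest difference was at chr3:96598790, with 24.1% ± 16.1 in WT and 10.0% ± 9.24 in mD3AKO, which was also the mD3AKO mean farthest from 0. The 3 CpGs 92 to 101 bp upstream of Lix1l were near 0 in both genotypes, at 0.348% ± 1.05 and 0.321% ± 0.975.

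A single mD3AKO sample, replicate 27 at 30 min, broke the pattern at 3 CpGs of the shared cluster. It was methylated in 29 of 32 calls (90.6%) at chr3:96598383, in 30 of 33 (90.9%) at chr3:96598415 and in 29 of 54 (53.7%) at chr3:96598418. No other mD3AKO sample exceeded 7.14% at any of these 3 CpGs. Over the whole cluster that sample was at 6.77%, the highest mD3AKO value. The study's methods name no molecular identifiers for the RRBS reads, so copies of 1 molecule may be counted repeatedly. Whether this happened at these CpGs was not tested. All intervals and limits given here cover counting error only.

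Sh3bgrl3, which encodes a small thioredoxin-like protein, had 1 cluster of 4 CpGs (chr4:134128929-134129117), 140 to 328 bp upstream of this minus-strand gene (chr4:134127406-134128789). WT levels ran from 0% through 12.9% to 30.2% and mD3AKO levels from 0% through 1.55% to 6.20%. The WT sample at 0, replicate 38 at 30 min, had 0 methylated of 214 calls, which allows a level of up to 1.40%. The groups overlapped, with 17 of 21 WT samples above the highest mD3AKO sample. The 4 CpGs differed among themselves. At 306 bp upstream WT stood at 21.8% ± 15.0 and mD3AKO at 2.11% ± 3.46, whereas 22 bp farther upstream, at 328 bp, they stood at 4.29% ± 6.94 and 3.91% ± 6.84.

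Ermap, a butyrophilin-like membrane protein of red cell precursors, had 2 clusters of 2 CpGs on the minus strand of chromosome 4 (gene chr4:119175457-119190011). The lead cluster (chr4:119189536-119189559) lay in an intron 452 to 475 bp from the start. WT levels ran from 64.1% through 81.0% to 95.7% and mD3AKO levels from 37.3% through 60.1% to 76.2%, and 13 of 23 mD3AKO samples lay below the lowest WT sample. Both CpGs were lower in mD3AKO, at 81.3% ± 14.0 against 58.1% ± 14.8 and at 79.9% ± 10.3 against 62.5% ± 11.3. The second cluster (chr4:119179968-119180055), 9481 bp away, was at 78.7% ± 12.2 in WT and 76.4% ± 11.5 in mD3AKO.

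The spread between animals was larger at every lead cluster than a counting error that takes each call as independent. In WT the SD between samples was 2.55 to 6.71 times the SD that the number of calls alone would give, with Ermap lowest and Fut11 highest. In mD3AKO it was 1.99 to 3.48 times. For Fut11 the WT SD of 4.71 points compared with a counting SD of 0.701, and the mD3AKO SD of 0.327 with 0.165. Neighbouring CpGs can be called on the same read, so the counting SD can be too small where a cluster holds several close CpGs. The order of the ratios between loci is therefore not read. The Coro1c lead, a single CpG, had ratios of 3.93 in WT and 2.90 in mD3AKO. How much of the excess, if any, comes from shared reads or from copies counted more than once was not tested.

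Measured clusters within 20 kb of the leads were examined to see how far the differences reached. For Fut11, the only other cluster (12 CpGs of Zswim8, 11882 bp away) was at 0.706% ± 0.976 in WT and 0.213% ± 0.336 in mD3AKO, and its genotype difference was not called (adjusted p = 0.575, edgeR quasi-likelihood test over all clusters). That WT level left little room for a loss to be seen. Around Lix1l and Ankrd34a, the 3 neighbours differed by -0.247 to -0.0032 points. The clusters 4347 and 2251 bp away stood at 0.492% ± 0.796 and 0.348% ± 1.05 in WT, too low for a loss to be seen. The single CpG 16159 bp away stood at 91.0% ± 10.8 in WT and 90.8% ± 11.2 in mD3AKO. Around Coro1c, the differences of the 3 neighbours, mD3AKO minus WT, were -9.63 and -8.63 points in the clusters of Coro1c itself and -2.07 at a CpG outside any gene's promoter or body. Ermap had 5 neighbours, all lower on average, and 1 of them passed the test. This was a cluster of 2 CpGs assigned to Svbp (chr4:119196241-119196263), 6682 bp from the Ermap lead cluster, which fell from 49.9% ± 8.74 (SD, n = 21) in WT to 28.2% ± 9.50 (SD, n = 23) in mD3AKO (adjusted p = 0.000241, edgeR). Svbp encodes a small partner of vasohibin, an enzyme that trims tubulin. Another cluster of Svbp between them (5 CpGs, chr4:119195225-119195361) was at 0.642% ± 1.03 and 0.551% ± 0.802, where WT had too little methylation for a loss to be seen. Apart from Zswim8 and this pair, the neighbours outside the 8 genes had adjusted p from 0.819 to 1.0.

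**Figure D3:**
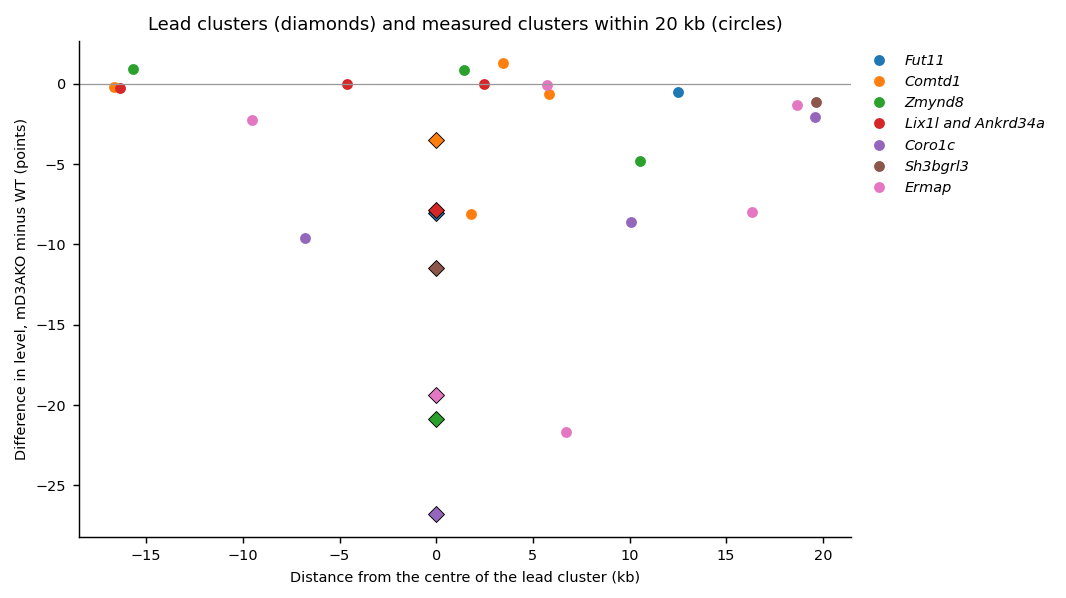
Difference in mean methylation level (mD3AKO minus WT, percentage points) of the lead clusters (diamonds, at 0 kb) and of other measured clusters within 20 kb (circles), against distance from the centre of the lead cluster along the plus strand (kb); the Fut11 and Lix1l with Ankrd34a diamonds nearly coincide at -8.05 and -7.84. Most neighbours lie near 0, some of them with WT levels too low for a loss to be seen, and the pair of CpGs of Svbp near Ermap stands at -21.7.

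Time after exercise was a contrast that the choice of loci had not used. None of the 21 member clusters passed the joint test of 10, 30 and 60 min against rest (edgeR quasi-likelihood test, smallest adjusted p = 1.0), and 0 had an unadjusted p under 0.05, against 2.86% of all clusters. The edgeR likelihood ratio test and limma on log2 ratios also called 0 of the 21, where they called 392 and 0 of all 51038 clusters. At an unadjusted p under 0.05 they had 2 and 0 of the 21, against 11.0% and 4.66% of all clusters. The lowest unadjusted p among the leads was 0.213, for Fut11. In order of time from rest to 60 min, its WT means were 7.38% ± 7.25, 7.91% ± 2.78, 11.2% ± 4.37 and 7.47% ± 3.91, and its mD3AKO means 0.442% ± 0.268, 0.244% ± 0.200, 0.529% ± 0.375 and 0.306% ± 0.392. At 30 min the 5 WT samples stood at 7.48%, 8.84%, 10.4%, 10.5% and 18.7%, which overlapped the values at rest.

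Whether the response to exercise differed between genotypes was tested as a genotype by time interaction. Neither edgeR's quasi-likelihood test, nor its likelihood ratio test, nor limma called any of the 21 clusters (0 of 21 each). Over all 51038 clusters they called 0, 418 and 1. An unadjusted p under 0.05 was found at 1 of the 21 by the first test, 4 by the second and 3 by limma, against 2.74%, 10.4% and 4.36% of all clusters. The 1 cluster was the Coro1c lead (unadjusted p = 0.0185, adjusted p = 1.0, edgeR quasi-likelihood test). From rest to 60 min, WT stood at 35.8% ± 26.2, 36.0% ± 19.5, 32.5% ± 5.85 and 51.3% ± 13.6 in turn. The mD3AKO means were 11.1% ± 11.8, 12.8% ± 5.49, 20.2% ± 9.22 and 5.19% ± 5.01. The mean difference, mD3AKO minus WT, was thus -12.3 points at 30 min and -46.1 at 60 min. At 60 min the 6 WT samples ran from 34.3% through 48.7% to 75.0% and the 6 mD3AKO samples from 0% through 5.17% to 13.8%, with no overlap, and at 30 min the groups overlapped, with WT from 25.6% to 38.5% and mD3AKO from 7.98% to 31.4%. Over numbers 1 to 25 the mean difference came to -36.4 points, and over 26 to 50 to -17.1.

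Within a genotype, each time was also set against rest. No member cluster was called in any of the 6 contrasts by edgeR's quasi-likelihood test (adjusted p = 1.0 at every lead), nor by the likelihood ratio test or limma. At an unadjusted p under 0.05, 1, 0 and 0 of the 21 clusters passed at 10, 30 and 60 min in WT by edgeR's quasi-likelihood test, where 4.29%, 3.17% and 3.67% of all clusters did. In mD3AKO, 1, 2 and 1 passed, where 2.89%, 2.8% and 3.0% of all clusters did. By limma the counts were 0, 0 and 0 in WT, against 5.95%, 4.82% and 5.05% of all clusters, and 1, 2 and 3 in mD3AKO, against 4.08%, 4.01% and 4.43%. By the likelihood ratio test they were 4, 1 and 1 in WT, against 8.69%, 7.06% and 7.83%, and 1, 2 and 1 in mD3AKO, against 6.76%, 6.56% and 6.83%.

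Those in mD3AKO included Comtd1, at 10 and 30 min, and Sh3bgrl3, at 30 min, both by edgeR. The 5 resting mD3AKO samples of Comtd1 stood at 0%, 0.119%, 0.374%, 1.11% and 1.35%, and the 5 at 10 min at 0.559%, 0.988%, 1.31%, 1.34% and 1.41% (unadjusted p = 0.0269, adjusted p = 1.0, edgeR). The 7 at 30 min ran from 0.451% through 1.40% to 2.13% (unadjusted p = 0.0156, adjusted p = 1.0, edgeR). The groups overlapped at both times. The Comtd1 WT means over the same times were 5.09% ± 1.22 at rest, 3.87% ± 1.35 at 10 min and 3.99% ± 1.20 at 30 min. For Sh3bgrl3, 3 of the 5 resting mD3AKO samples stood at 0 and the others at 1.37% and 2.22%, and the 7 at 30 min ran from 0.552% through 4.79% to 6.20% (unadjusted p = 0.0226, adjusted p = 1.0, edgeR). Its WT values went the other way on average, with 17.1% ± 4.85 at rest and 12.2% ± 11.7 at 30 min.

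At the remaining leads no contrast with rest had an unadjusted p under 0.05 by edgeR. The Lix1l and Ankrd34a cluster in WT stood, from rest to 60 min, at 9.81% ± 2.52, 8.43% ± 3.53, 8.55% ± 2.34 and 14.8% ± 4.72, and in mD3AKO at 3.05% ± 1.97, 1.95% ± 0.949, 3.46% ± 1.62 and 2.39% ± 1.20. The 6 WT samples at 60 min ran from 7.43% through 14.0% to 20.5% and overlapped the 5 at rest, which stood at 7.33%, 7.51%, 9.43%, 12.0% and 12.8% (unadjusted p = 0.202, adjusted p = 1.0, edgeR). Zmynd8 in WT stood in the same order at 16.9% ± 15.4, 27.4% ± 7.88, 29.0% ± 10.3 and 19.3% ± 12.2, and in mD3AKO between 1.79% and 2.45% at every time. Ermap in WT stood between 78.5% and 81.6% at every time, and in mD3AKO between 56.6% and 65.2%.

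**Figure D4:**
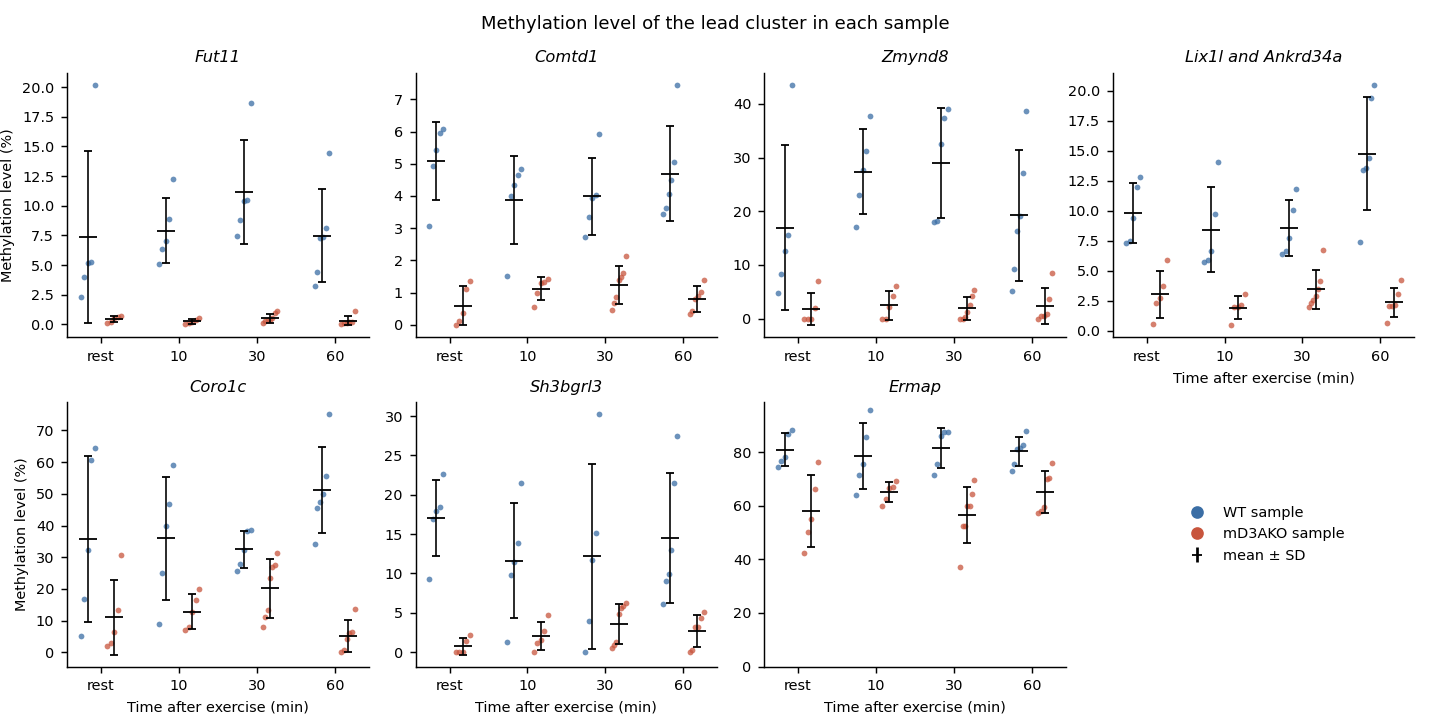
Methylation level (%) of each lead cluster in every sample, by genotype and time after exercise; points are samples (WT blue, mD3AKO red), and black bars are means ± SD over 5 to 7 samples. The mD3AKO samples of Fut11 stay at or below 1.14% at each time, below every WT sample, and the Coro1c groups are farthest apart at 60 min.

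Males and females were compared with sex as a term beside the 8 groups. Neither sex nor the genotype by sex interaction was called at any of the 21 clusters by edgeR's quasi-likelihood test (smallest adjusted p 1.0), by the likelihood ratio test or by limma. At an unadjusted p under 0.05, 0 clusters passed for sex, against 4.36% of all clusters, and 0 for the interaction, against 3.29%. At that level the likelihood ratio test had 0 and 2, against 8.0% and 7.11% of all clusters, and limma 2 and 1, against 5.73% and 4.61%. The lowest unadjusted p for sex was at Fut11 (0.0756, adjusted p = 1.0, edgeR). Its WT level was 10.0% ± 5.6 (n = 11) in males and 6.66% ± 2.78 (n = 10) in females, and its mD3AKO level 0.462% ± 0.394 (n = 12) and 0.311% ± 0.226 (n = 11). The Lix1l and Ankrd34a cluster was likewise 2.34 points higher in WT males and 0.912 points higher in mD3AKO males, while Sh3bgrl3 was higher in females, at 16.7% ± 8.46 against 11.3% ± 7.03 in WT.

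Whether an animal with a high level at one locus was also high at another was asked within each genotype, over 21 pairs of lead clusters in WT and 21 in mD3AKO. Pearson's r ran from -0.54 to 0.35 in WT, with 9 of 21 above 0, and from -0.46 to 0.59 in mD3AKO, with 13 of 21 above 0. After Benjamini-Hochberg adjustment over the 42 pairs, 0 passed by Pearson's r (permutation test, 100000 resamples, two-sided), with 1 in WT and 3 in mD3AKO at an unadjusted p under 0.05. Comtd1 and Coro1c in mD3AKO gave the highest value, with r = 0.59 (permutation p = 0.00278, adjusted p = 0.117) and Spearman's rho = 0.66 (permutation p = 0.001, adjusted p = 0.042), the only pair of the 42 to pass by rho. Without the 2 samples farthest from the Comtd1 median r was 0.49, and it was 0.50 in sample numbers 1 to 25 (n = 11) and 0.45 in 26 to 50 (n = 12). In WT the same pair gave r = 0.26. The level also correlated with the log2 number of calls in mD3AKO, with r = 0.45 at Comtd1 and 0.32 at Coro1c. In WT those values were -0.05 and 0.06. Any part of depth in the correlation of this pair was not tested. The lowest r of the 42 pairs was for Zmynd8 with Lix1l and Ankrd34a in WT, with r = -0.54 (permutation p = 0.0113, adjusted p = 0.237) and rho = -0.46 (permutation p = 0.0364, adjusted p = 0.508). It was -0.49 without the 2 samples farthest from the Zmynd8 median, -0.40 in numbers 1 to 25 (n = 11) and -0.47 in 26 to 50 (n = 10).

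**Figure D5:**
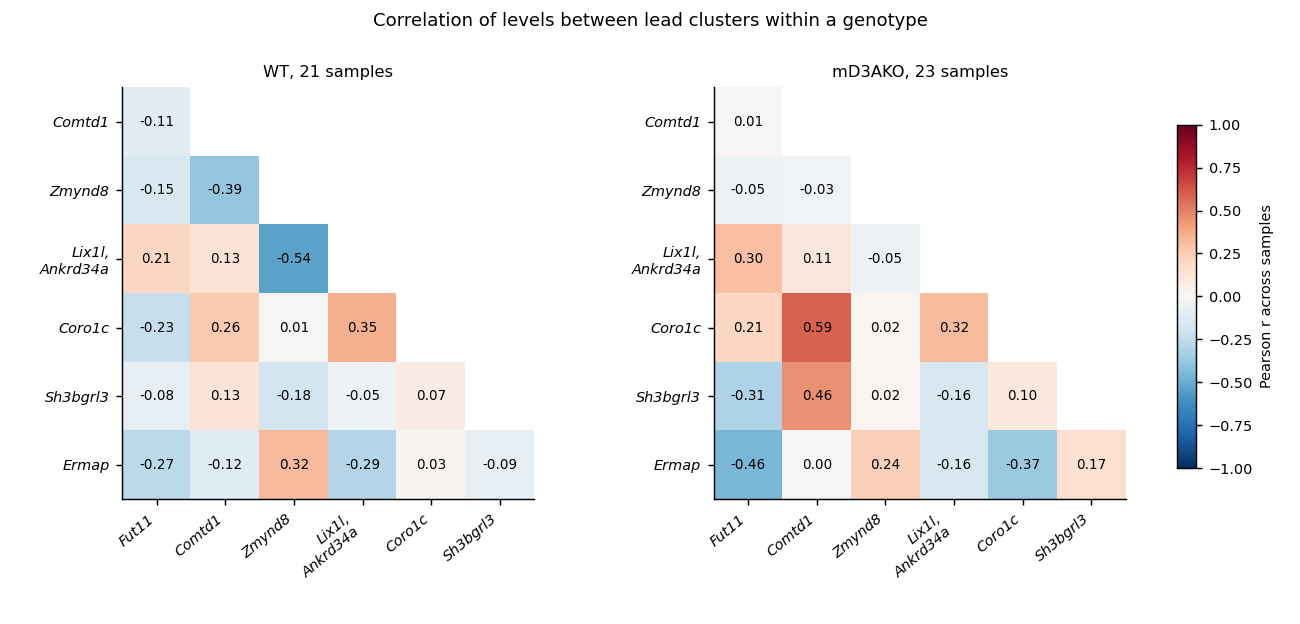
Pearson's r between the levels of each pair of lead clusters across 21 WT samples (left) and 23 mD3AKO samples (right); the colour scale runs from -1 (blue) to 1 (red) and each cell gives r. The highest value is 0.59, for Comtd1 with Coro1c in mD3AKO, and the lowest -0.54, for Zmynd8 with Lix1l and Ankrd34a in WT.

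Relatives of the 8 genes, 38 genes of the same families (fucosyltransferases, catechol-O-methyltransferase relatives, MYND and bromodomain readers with KDM5 demethylases, Lix1, ankyrin repeat relatives, coronins, SH3-binding glutamate-rich proteins and butyrophilins), were examined for the same genotype difference. Of these, 30 had measured CpGs, in 61 clusters. By edgeR's quasi-likelihood test 0 of 61 were called in either direction, and 3 had an unadjusted p under 0.05, where 9.56% of all clusters did. Of the 61, 37 were lower in mD3AKO on average, and the median difference was -0.338 points, against -0.455 over all clusters. The closest to the threshold was a cluster of 2 CpGs in Fut10, a fucosyltransferase like Fut11 (chr8:31241501-31241528), at 89.5% ± 8.79 in WT and 78.0% ± 10.2 in mD3AKO (adjusted p = 0.119, edgeR), which limma called (adjusted p = 0.0311). The likelihood ratio test called 1 CpG of Brd3, a bromodomain reader (chr2:27449531), at 97.6% ± 5.86 and 91.5% ± 10.4 (adjusted p = 0.129 by edgeR's quasi-likelihood test). Among the coronins, the lowest adjusted p was 0.359, in Coro2b.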

How the data were processed

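The authors trimmed reads with Trim Galore 0.4.0 and cutadapt 1.9.1 and aligned them to mm10 with Bismark 0.18.1 (named in the submitters' processing notes). The deposited values are raw counts of methylated and unmethylated calls per CpG and sample, with both strands added by the authors, kept where every sample had at least 8 calls, and with the authors' clusters and gene assignments. Of 50 samples, 44 had counts among these values and were used. The other 6 had none, among them sample 7, whose labels disagree on genotype. The paper states that samples with too few aligned reads were excluded because their global methylation differed, and does not list them.

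Counts were summed per cluster and tested with edgeR 4.0.16 (R 4.3.3): quasi-likelihood F tests with 1 coefficient per sample, the methylated fraction of the 8 groups and a common dispersion of 0.437, adjusted over 51038 clusters at 0.05. On simulated data of 2042 clusters, the time test recovered 16% of changes of 1 in natural log odds and 96% of changes of 2. The genotype test recovered 59% and 98%, and the sex test 66% and 100%. Of the 2042 simulated clusters, 1842 were left unchanged. These percentages describe that set and may not hold over the 51038 clusters of the data, where the share of changed clusters is not known. The absence of calls for time and sex therefore does not exclude changes of 2. Recovery of a change at a single time or in a single genotype is not given by these percentages. Recovery was not tested for the interactions, nor for the contrasts of each time with rest within a genotype. How large a change those tests could have missed is therefore not known. Alternatives were the likelihood ratio test, limma 3.58.1 on log2((methylated + 1)/(unmethylated + 1)), a minimum of 20 calls, other cluster gaps and leaving out each sample.

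The members and the lists of relatives were chosen with earlier results of these data known. The text names the 8 members, their relatives, genes overlapping or neighbouring a lead cluster, Dnmt3a and the 5 clusters most like the leads. Intervals are 95% Wilson intervals that take each call as independent, and a count of 0 allows 3 counts. Labels do not name separate litters or cages, so p-values measure the spread between these mice.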

Additional observations from a re-analysis of the deposited data

Results flagged for a closer look

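A single sample stood apart from the rest of its group, by Dixon's test at 95%, in 6 of the 56 combinations of lead cluster and group. If levels within a group were normally distributed, chance alone would flag about 1 in 20 groups, or 2.8 of 56. Levels near 0 need not be so distributed, so 6 against 2.8 is not read as an excess. Fut11 accounted for 3. The WT replicate 14 at rest stood at 20.2% (324 of 1607 calls, 95% Wilson interval 18.3% to 22.2%) while the other 4 stood between 2.27% and 5.25%. The WT replicate 37 at 30 min stood at 18.7% (279 of 1494 calls, 16.8% to 20.7%) against 7.48% to 10.5%. The mD3AKO replicate 17 at 60 min stood at 1.09% (20 of 1839 calls, 0.705% to 1.67%) against 0% to 0.232%. In Comtd1 the WT replicate 42 at 10 min was low, at 1.52% (49 of 3214 calls, 1.16% to 2.01%) against 4.01% to 4.83%. In Zmynd8 the WT replicate 1 at rest stood at 43.5% (40 of 92 calls, 33.8% to 53.7%) against 4.82% to 15.5%, on the fewest calls of any sample there. The mD3AKO replicate 24 at rest stood at 7.04% (29 of 412 calls, 4.95% to 9.93%) against 0% to 1.92%.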

How the results depend on the processing

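Of 543 alternative values of 13 results, 538 kept their direction and side of the threshold or moved by less than 1 SD between samples. Most of the 543 left out a single sample, which can move a mean over 21 or 23 samples only a little. The Comtd1 difference moved from -3.47 points to -4.60 and -4.72 when clusters were rebuilt from the measured CpGs with gaps of 50 and 200 bp, since the CpGs around the start were then left out. Among the relatives, 1 cluster was called by the likelihood ratio test and 1 by limma, against 0. Correlations of residuals on time and sex passed for 2 pairs against 0, both in mD3AKO: Comtd1 with Coro1c (r = 0.61, permutation adjusted p = 0.0454) and Fut11 with Sh3bgrl3 (r = -0.63, permutation adjusted p = 0.0454). Leaving out each sample gave differences from -8.35 to -7.46 for Fut11 and from -28.5 to -25.0 for Coro1c. It gave no call for time, sex or either interaction, with adjustment over 1042 clusters rather than 51038. Coro1c rested on 1 CpG, and its difference was -36.4 in sample numbers 1 to 25 and -17.1 in 26 to 50. Both counted as unmoved because its SD between samples was 14.3 points. With at least 20 calls, 13 of the 21 member clusters were left. No paired analysis was possible because each sample number occurred once.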

Other observations

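The clusters outside the 8 genes whose levels over the 44 samples followed the mean of the 7 leads most closely lay at other genes with a large difference between genotypes. In order of Pearson's r they were Trim54 with Ucn (18 CpGs, r = 0.82), Pknox2 (4 CpGs, r = 0.81), Tpcn2 (2 CpGs, r = 0.79), Casz1 (4 CpGs, r = 0.78) and Wnt5a (13 CpGs, r = 0.78). These values are a description across samples of both genotypes, which share libraries and depth. Within WT alone r ran from -0.04 (Casz1) to 0.47 (Tpcn2), and within mD3AKO from 0.11 (Wnt5a) to 0.30 (Trim54 with Ucn), so the likeness lay mainly in the step between genotypes. Trim54 is a ring finger protein of the sarcomere, Pknox2 and Casz1 are transcription factors, Tpcn2 is a lysosomal ion channel and Wnt5a a secreted signal. The Wnt5a cluster (chr14:28510961-28511489) was lightly methylated like Fut11, at 7.45% ± 3.58 in WT (n = 21) and 1.84% ± 1.25 in mD3AKO (n = 23). The Pknox2 cluster (chr9:37053627-37053702) was partly methylated like Coro1c, at 36.2% ± 8.14 and 13.8% ± 6.64.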
